A study of Mus musculus with 4 samples.

Results

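Integrins are the receptors by which cells hold on to the extracellular matrix. The integrin genes of myoblasts taken up here are 10 listed genes: *Itga3*, *Itga4*, *Itga5*, *Itga6*, *Itga7* and *Itgav* for alpha subunits, *Itgb1*, *Itgb3* and *Itgb5* for beta subunits, and *Ilk*, the integrin-linked kinase. They were found by Ensembl gene ID among the 56748 gene IDs counted. Of the 10 genes, 8 had at least 1 read, as did 16728 of all gene IDs. Filtering on low counts left 7 of the 10, among 8670 genes tested.

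The question was how the RNA of C2C12 cells, an established mouse myoblast line, changes when *Hnrnpl* is knocked down. *Hnrnpl* encodes hnRNP L, an RNA-binding protein that acts in splicing and binds CA-rich RNA. All 4 libraries came from C2C12 myoblasts of genotype WT in growth medium with fetal bovine serum, 2 with scrambled shRNA and 2 with *Hnrnpl* shRNA. Both kinds of cell were transfected with plasmids that also carry an eGFP reporter, were picked for eGFP and were kept as stable cells under puromycin at 3 µg/mL. The *Hnrnpl* shRNA was a mix of 3 hairpins. Replicates 1 and 2 of each group were passages of 1 selected line and carried batch labels 1 and 2. A difference between the groups thus cannot be told apart from a difference between 2 selected lines, and p-values measure the spread between passages.

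An integrin is a pair of 1 alpha and 1 beta subunit, and the pair sets the ligand. Alpha 5 beta 1 binds fibronectin, the alpha v pairs bind vitronectin and other matrix proteins with an RGD motif, and alpha 3, alpha 6 and alpha 7 with beta 1 bind laminins. In muscle, alpha 4 and alpha 5 are known from the embryonic stages, and alpha 7 beta 1 is the main laminin-binding integrin of the mature fibre. Inside the cell the beta tail binds talin and kindlin, and ILK joins it to the actin cytoskeleton with PINCH and parvin.

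RNA was read directly on nanopores, so that 1 read stands for 1 RNA molecule. The libraries held 1387523 and 1676911 reads counted to genes for scrambled 1 and 2, and 1374637 and 1229424 for knockdown 1 and 2. *Hnrnpl* itself had 358 and 656 reads in the scrambled libraries against 242 and 258 after knockdown, which is a log2 fold change of -0.78 (SE 0.175, edgeR adjusted p = 0.0112). Without scrambled 2 this was -0.48 (adjusted p = 0.194), and without knockdown 1 it was -0.62 (adjusted p = 0.150). The DESeq2 Wald test with a parametric fit did not call *Hnrnpl* either (adjusted p = 0.0567). Of 9 myoblast marker genes, 8 had reads, and the whole list summed to 693 and 780 reads per 1e+06 counted reads (CPM) in the scrambled libraries against 611 and 554. *Des*, *Cdh15* and *Ncam1*, which encode desmin, M-cadherin and a neural cell adhesion molecule, were called lower among its 6 tested genes, where 3.22% of all tested genes were called lower. The other 3 were not called, *Myf5* with a log2 fold change of -0.16, *Cdh2* with 0.14 and *Met* with 0.53 (edgeR adjusted p = 0.615, 0.644 and 0.0599). The call of *Des* was lost without scrambled 2 (edgeR adjusted p = 0.297), knockdown 1 (0.0970) or knockdown 2 (0.117), with the replicate block (0.0526) and in the DESeq2 Wald test with a parametric fit (0.208), where *Ncam1* was lost too (0.0770). *Chrng* was at 0, and *Myod1*, a defining factor of myoblasts, had 1 read over the 4 libraries together. Why *Myod1* had next to no reads was not tested, and its count is not taken as a level. The myotube list summed to 7.27 to 13.7 CPM with 3 of 10 genes detected and *Myog* at 0. The fibroblast list summed to 181 to 194 CPM in scrambled against 173 to 207, the epithelial list to 4.77 to 13.7 against 2.91 to 9.76 CPM, and the endothelial and leukocyte lists stayed at or under 5.69 CPM. Whether the 3 lower markers have a part in the integrin values below was not tested. In bulk RNA, fewer cells with a transcript and less of it per cell cannot be told apart.

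*Itga5*, for the fibronectin receptor, was lower in the knockdown at 0.581 of its scrambled level (95% interval 0.464 to 0.728). *Itgb5*, the beta partner of alpha v, was higher at 1.56 times (1.23 to 1.97), on a chromosome whose genes were higher as a whole. The other 5 tested genes were not called, *Itga3* and *Itgb3* with wide intervals away from 0 and *Itgav*, *Itga6* and *Itgb1* close to it. *Itga4* and *Ilk* were listed at 0 in every library. A gene was called when its adjusted p was under 0.05, its log2 fold change was over 0.5 in size and its mean normalized count was over 10. By this rule 2 of the 7 tested integrin genes were called, 1 higher and 1 lower. Over all tested genes 5.55% were called, 2.33% higher and 3.22% lower. Values of the 2 groups did not overlap for 6 of the 7, with 3 higher and 3 lower in knockdown, and for 52.4% of all tested genes. Before adjustment, 4 of the 7 had a p under 0.05, 2 in each direction, as had 21.8% of all tested genes (10.3% higher and 11.5% lower).

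**Figure D1:**
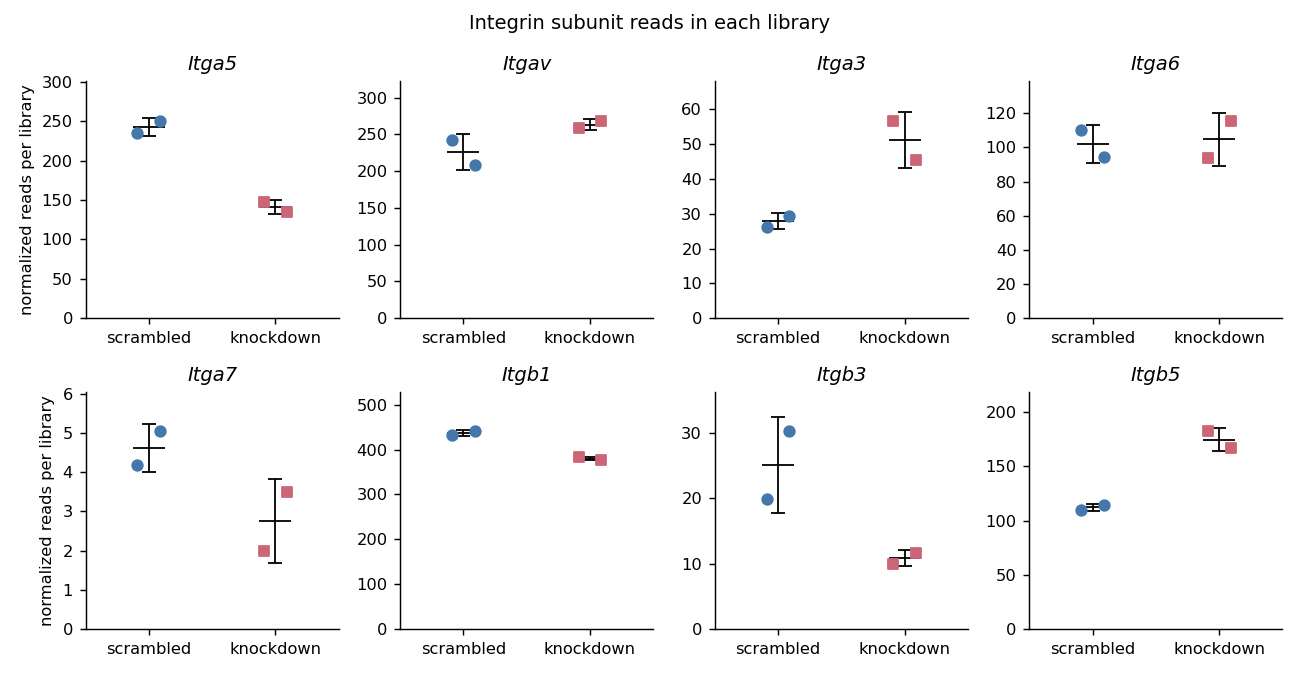
Normalized reads of the 8 integrin genes with at least 1 read, in scrambled (blue circles) and knockdown (red squares) libraries; each y axis starts at 0 and has its own range, and black bars give the mean and SD of 2 libraries. *Itga5* lies at 235 and 251 against 147 and 134, and *Itgb5* at 110 and 114 against 182 and 167.

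hnRNP L is known for binding CA repeats, so the 10 genes were searched for uninterrupted CA repeats of at least 20 bases on the transcribed strand. *Itga5* had 1 such repeat, *Itgb5* had 3, *Itga3* had 4 and *Itgb3* had 2. *Itga6* had 9, *Itgav* 3, *Itga7* 2, *Itga4* and *Itgb1* 1 each, and *Ilk* none. The longest repeat is shown for the 4 genes whose interval leaves out 0, in GRCm39, 5′ to 3′ on the transcribed strand, with the repeat in capitals and 10 flanking bases on each side. The gene name is followed by the position and strand of the window printed:
*Itga5*, chr15:103255954-103255997, minus: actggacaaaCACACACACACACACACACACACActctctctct
*Itgb5*, chr16:33736910-33736977, plus: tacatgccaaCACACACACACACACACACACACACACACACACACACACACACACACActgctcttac
*Itga3*, chr11:94951125-94951182, minus: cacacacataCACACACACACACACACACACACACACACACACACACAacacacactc
*Itgb3*, chr11:104548975-104549030, plus: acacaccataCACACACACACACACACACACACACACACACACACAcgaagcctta

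None of these 4 windows overlaps an annotated exon, so they lie in introns. The repeats are 24 bases long in *Itga5*, 48 in *Itgb5*, 38 in *Itga3* and 36 in *Itgb3*. Genes of 20000 to 130000 bases had such a repeat in 70.1% of 4353 tested cases, with a median of 2.94 repeats per 100 kb. *Itga5* held 4.43, *Itgb5* 2.48, *Itga3* 12.4 and *Itgb3* 3.2 per 100 kb. The tested genes close to their scrambled level had 7.91 for *Itga6*, 3.62 for *Itgav* and 2.05 for *Itgb1*. Genes on both sides of this median were thus found among the called and the uncalled. A repeat in the reference sequence is a description of the gene and was not measured as a binding site here.

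Of the alpha subunits that bind RGD ligands, *Itga5* (ENSMUSG00000000555) lies on chr15:103252713-103275270 on the minus strand, with 30 exons in its canonical transcript of 4382 bases. It had 224 and 298 reads under scrambled shRNA, against 148 and 115 under *Hnrnpl* shRNA. Scaled to library size, this was 243 ± 11.4 normalized reads against 141 ± 9.23 (SD, n = 2). Both knockdown libraries were below both scrambled libraries. *Itga5* fell by 0.78 on the log2 scale (SE 0.155, 95% interval -1.11 to -0.46, edgeR quasi-likelihood test, Benjamini-Hochberg adjusted p = 0.00471). The adjusted p stayed under 0.05 with each library left out in turn and in 11 of 12 other settings of the analysis, the exception being the DESeq2 Wald test with a parametric fit (adjusted p = 0.0705). The median log2 fold change of tested genes on chromosome 15 was -0.10.

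*Itgav* (ENSMUSG00000027087), for the alpha v subunit that pairs with several beta subunits, lies on chr2:83554403-83637260 on the plus strand with 30 exons. It had 232 and 248 reads, against 259 and 230 in knockdown, or 226 ± 24.2 and 263 ± 7.61 normalized reads (SD, n = 2). The normalized values of the groups did not overlap, with 243 as the higher scrambled and 258 as the lower knockdown value. The log2 fold change was 0.23 (SE 0.150, 95% interval -0.09 to 0.54, edgeR adjusted p = 0.407), and *Itgav* was not called in any of the 16 settings run. Within the pair, *Itga5* made up 49.1% and 54.6% of the *Itga5* and *Itgav* reads in scrambled (exact binomial 95% intervals 44.4 to 53.8% and 50.3 to 58.8%). In knockdown it made up 36.4% and 33.3% (31.7 to 41.2% and 28.4 to 38.6%). The intervals, which cover counting error only, do not overlap between the groups.

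Among the laminin-binding alpha subunits, *Itga6* was near its scrambled level, while *Itga3* had few reads and an estimate away from 0. *Itga6* (ENSMUSG00000027111), which pairs with beta 1 or beta 4, lies on chr2:71575960-71689757 on the plus strand and has 26 exons. Its reads were 105 and 112, against 94 and 99 in knockdown, or 102 ± 11.1 and 105 ± 15.6 normalized reads (SD, n = 2). These values overlapped between the groups. The log2 fold change was 0.04 (SE 0.180, 95% interval -0.34 to 0.41, edgeR adjusted p = 0.936).

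*Itga3* (ENSMUSG00000001507) lies on chr11:94935296-94967682 on the minus strand with 26 exons. It had 25 and 35 reads, against 57 and 39 in knockdown, or 27.8 ± 2.31 and 51.2 ± 7.93 normalized reads (SD, n = 2). Both knockdown libraries were above both scrambled libraries. The log2 fold change was 0.88 (SE 0.266, 95% interval 0.32 to 1.44), and the edgeR adjusted p of 0.0564 was just past the threshold. It was under 0.05 in 3 of 12 other settings, without the filter on low counts (0.0382), with the robust test (0.0474) and with chromosome medians removed (0.0453), and in none of the 4 fits with a library left out (0.0590 to 0.294).

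*Itga7* (ENSMUSG00000025348), for the laminin receptor of mature muscle, lies on chr10:128769621-128794169 on the plus strand with 25 exons. It had 4 and 6 scrambled reads and 2 and 3 knockdown reads, under the filter on low counts, and no fold is given. Of its last 100 bases, 27 are overlapped by exons of *Tmt1b*, and whether this lowered its count was not tested. At this depth a count of 3 reads, the upper limit that a count of 0 allows, is 1.79 to 2.44 CPM. *Itga4* (ENSMUSG00000027009), whose protein binds VCAM-1 and fibronectin, lies on chr2:79085660-79163467 on the plus strand with 28 exons and was listed at 0 in all 4 libraries. The last 100 bases of *Itga4* itself are not overlapped by exons of another counted gene. *Cerkl* on the other strand, whose last 100 bases are wholly overlapped by *Itga4* exons, was also listed at 0. As for *Ilk* below, what left *Itga4* without reads was not tested, and no level is drawn from its 0.

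*Itgb1* (ENSMUSG00000025809) encodes beta 1, the partner of alpha 3, alpha 5, alpha 6 and alpha 7. It lies on chr8:129411876-129460618 on the plus strand with 16 exons, and had the most reads of the 10 genes. It had 413 and 524 reads, against 384 and 323 in knockdown, or 437 ± 5.95 and 380 ± 3.59 normalized reads (SD, n = 2). The 2 knockdown values, 383 and 377, were below the scrambled values of 432 and 441. The log2 fold change of -0.20 was nevertheless not called (SE 0.136, 95% interval -0.49 to 0.09, edgeR adjusted p = 0.419), and no setting of 16 called it.

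*Itgb5* (ENSMUSG00000022817), for a beta subunit that pairs with alpha v, lies on chr16:33649988-33771137 on the plus strand with 15 exons. Its reads were 105 and 136, against 183 and 143 in knockdown, or 112 ± 3.17 and 175 ± 10.7 normalized reads (SD, n = 2). Both knockdown libraries were above both scrambled libraries. *Itgb5* rose by a log2 fold change of 0.64 (SE 0.162, 95% interval 0.30 to 0.98, edgeR quasi-likelihood test, adjusted p = 0.0240). On chromosome 16 the median log2 fold change of tested genes was 0.30. With chromosome medians removed, *Itgb5* had a log2 fold change of 0.34 (edgeR adjusted p = 0.336) and was not called. Nor was it called by the DESeq2 Wald test with a local or parametric fit or the likelihood-ratio test (adjusted p = 0.129, 0.409 and 0.137). It was not called without scrambled 1, scrambled 2 or knockdown 1 either (edgeR adjusted p = 0.0995, 0.0852 and 0.150).

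*Itgb3* (ENSMUSG00000020689), the other beta partner of alpha v on this list, lies on chr11:104498826-104561302 on the plus strand with 15 exons. It had 19 and 36 reads, against 10 and 10 in knockdown, or 25.1 ± 7.35 and 10.8 ± 1.22 normalized reads (SD, n = 2). Both knockdown libraries were below both scrambled libraries, and the scrambled libraries differed by more than the knockdown ones. The log2 fold change was -1.23 (SE 0.390, 95% interval -2.05 to -0.42), with an edgeR adjusted p of 0.0669. It was under 0.05 in 2 of 12 other settings, without the filter (0.0332) and with at least 10 counts asked of every library (0.0325), and in 1 of the 4 fits with a library left out, without scrambled 1 (0.0355). Over the 12 settings the adjusted p reached 0.759, and without scrambled 2 the log2 fold change was -0.89 (edgeR adjusted p = 0.479).

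The values for *Itgb3* and *Itgb5* had opposite signs. *Itgb5* made up 84.7% and 79.1% of the reads of both genes in scrambled, and 94.8% and 93.5% in knockdown. Both knockdown shares were above both scrambled shares, but the exact binomial 95% intervals of scrambled 1 (77.1 to 90.5%) and knockdown 2 (88.3 to 96.8%) overlapped. The shares follow from the 2 fold changes and were not tested apart from them.

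**Figure D2:**
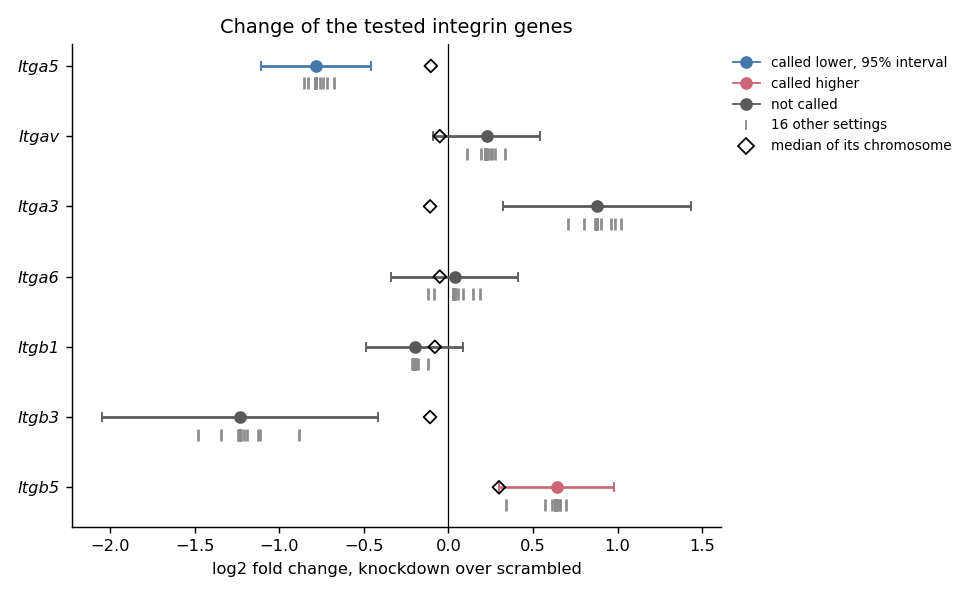
Log2 fold change of the 7 tested integrin genes, knockdown over scrambled, with the 95% interval; grey ticks give the other settings and open diamonds the median of all tested genes on the same chromosome. *Itga5* at -0.78 stands clear of its chromosome's median of -0.10, and *Itgb5* at 0.64 shares chromosome 16 with a median of 0.30.

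*Ilk* (ENSMUSG00000030890) lies on chr7:105385782-105392182 on the plus strand with 13 exons and was listed at 0 in every library. ILK is used by most adherent cells, so a 0 here may not stand for absence of the RNA. The last 100 bases of its transcript are wholly overlapped by exons of *Taf10* on the other strand, and *Taf10* had 7 and 11 reads against 12 and 11. Of 1251 protein-coding genes with such an overlap, 23.8% had no read, and of 19428 without one, 42.1%. At least 40 reads were held by 34.6% of those with the overlap and 38.7% of those without. These shares take in genes that the cells may not express, so they give no verdict on *Ilk*. Mapped back to the genome, its transcript came to the *Ilk* locus with a mapping quality of 60, as did the transcripts of the 9 other genes. The last 800 bases of *Ilk*, mapped alone, also came to its locus with a mapping quality of 60. They had a further alignment on chromosome 13 with a mapping quality of 0, which was found for none of the 9 others. What left *Ilk* without reads was not tested, and nothing is said here of its level in knockdown.

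*Itgb1* led the beta subunits in both groups, while *Itga5* and *Itgav* led the alpha subunits. By normalized reads *Itgb1* came first with 437, then *Itga5* with 243 and *Itgav* with 226, *Itgb5* with 112 and *Itga6* with 102, and last *Itga3* with 27.8 and *Itgb3* with 25.1. *Itga5* and *Itgav* overlapped between libraries, as did *Itgb5* and *Itga6*, and *Itga3* and *Itgb3*. In knockdown the order was *Itgb1* with 380, *Itgav* with 263, *Itgb5* with 175, *Itga5* with 141, *Itga6* with 105, *Itga3* with 51.2 and *Itgb3* with 10.8, with no overlap between neighbours. By its mean *Itga5* thus stood at the second place in scrambled and at the fourth in knockdown.

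As 1 read stands for 1 molecule, these reads need no division by length, and levels per kilobase of the canonical transcript are added only as a second scale. Per kilobase the scrambled libraries gave 87.1 for *Itgb1*, 55.4 for *Itga5*, 33.7 for *Itgb5*, 30.5 for *Itgav*, 23.1 for *Itga6*, 5.6 for *Itga3* and 4.34 for *Itgb3*. In knockdown *Itgb1* had 75.8, *Itgb5* 52.5, *Itgav* 35.6, *Itga5* 32.2, *Itga6* 23.7, *Itga3* 10.3 and *Itgb3* 1.87. In both groups *Itgb5* passed *Itgav* on this scale, and 5 of 7 genes kept their place. *Itga5* again moved from the second place to the fourth.

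Summed over all integrin subunits, reads came to 888 and 910 CPM against 898 and 833, and these totals overlapped between the groups. The alpha subunits had 430 and 421 CPM against 414 and 399, and the beta subunits 458 and 489 against 484 and 434. Within alpha reads *Itga5* took 37.5% and 42.2% in scrambled, against 26.0% and 23.5%. *Itgav* took 38.9% and 35.1%, against 45.5% and 46.9%. *Itga3* took 4.19% and 4.96%, against 10.0% and 7.96%. For these 3 subunits the 2 knockdown shares lay outside the range of the scrambled shares, and for *Itga6* they did not. The exact binomial 95% intervals overlapped between the groups for *Itgav* (34.9 to 42.9% in scrambled 1 and 41.4 to 49.7% in knockdown 1) and for *Itga3* (3.48 to 6.83% in scrambled 2 and 5.72 to 10.7% in knockdown 2). Within beta reads *Itgb1* took 65.0% and 63.9%, against 57.7% and 60.5%, while *Itgb5* took 16.5% and 16.6%, against 27.5% and 26.8%. The intervals overlapped between the groups for *Itgb1* (61.2 to 68.7% in scrambled 1 and 56.2 to 64.7% in knockdown 2) and did not for *Itgb5*. Shares of a sum are tied to each other, so a lower share of one gene raises the rest.

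**Figure D3:**
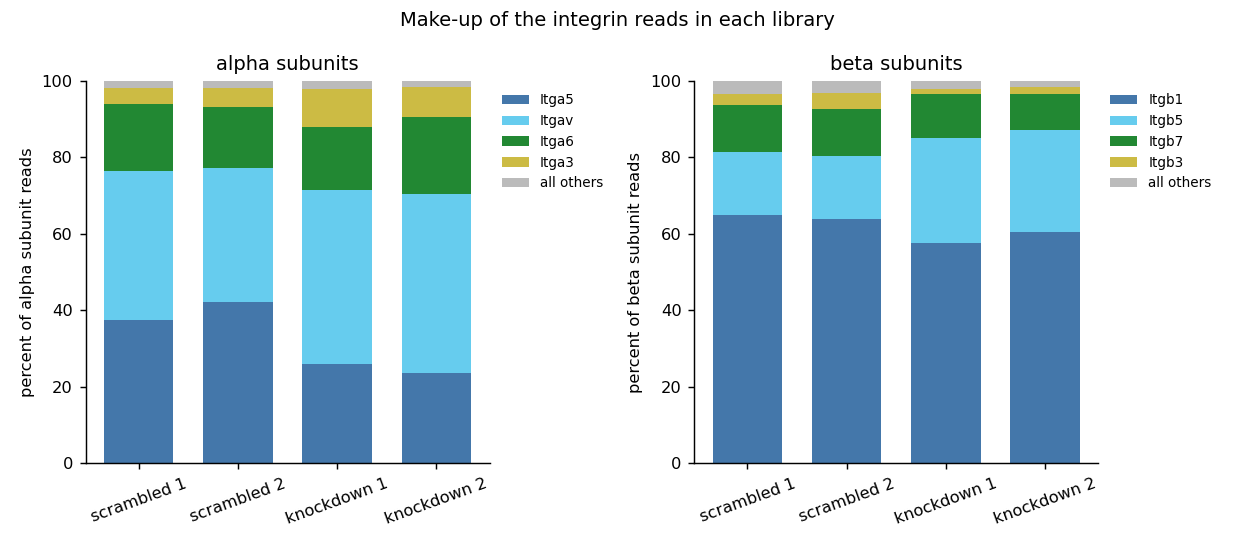
Percent of alpha subunit reads (left) and beta subunit reads (right) taken by each gene in each library, stacked to 100%. *Itga5* narrows from 37.5% and 42.2% in scrambled to 26.0% and 23.5% in knockdown, and *Itgb5* widens from 16.5% and 16.6% to 27.5% and 26.8%.

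Of 17 other integrin subunit genes, 12 had reads and 1 was tested. *Itgb7*, for a beta subunit of leukocytes, had 77 and 99 reads against 75 and 50, with a log2 fold change of -0.29 (SE 0.199, edgeR adjusted p = 0.420). *Itgb4*, the partner of alpha 6 in epithelia, had 9 and 10 reads against 7 and 2, and *Itgb8* had 7 and 10 against 6 and 4. *Itga8*, *Itga9*, *Itgad*, *Itgam* and *Itgax* were listed at 0. The listed alpha genes took 98.4 to 99.2% of alpha reads, and the listed beta genes 84.6 to 89.1% of beta reads. *Itgb7* took 9.36 to 12.1% of beta reads, against 1.5 to 4.39% for *Itgb3*. Thus the integrin reads that were counted were carried by few subunits.

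The rest of the adhesion machinery is given in 6 lists of 7 to 23 genes chosen by role. Over those lists and the other subunits together, 77 of 106 genes were tested, and 3 were called higher and 5 lower, or 10.4%, beside 5.55% of all tested genes (2.33% higher and 3.22% lower). Their median log2 fold change was 0.03, against -0.00059 over all tested genes and 0.04 over the integrin genes.

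None of 5 tested ILK-PINCH-parvin partners was called, and none had an unadjusted p under 0.05. *Parva*, for alpha parvin, had 283 and 377 reads against 287 and 227, with a log2 fold change of -0.15 (edgeR adjusted p = 0.573). *Lims1*, for the adaptor PINCH, had 177 and 213 against 190 and 142, a log2 fold change of -0.03 (adjusted p = 0.930). *Parvb* had 0.11 and *Rsu1* -0.06 (edgeR adjusted p = 0.756 and 0.853). Of the 7 partners on the list, 6 had reads, and *Parvg* was listed at 0.

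Among 10 tested activators and inhibitors of integrins, 1 gene was called lower and none higher. *Fermt2*, for kindlin-2, which binds the beta tail, had 193 and 213 scrambled reads and 104 and 98 knockdown reads. It fell by 0.80 on the log2 scale (SE 0.165, edgeR adjusted p = 0.00593). Its chromosome 14 had a median of -0.36, and with chromosome medians removed *Fermt2* had a log2 fold change of -0.44 (adjusted p = 0.182) and was not called. *Tln1*, for talin, had 78 and 113 reads against 78 and 65 and was not called (-0.21, edgeR adjusted p = 0.560), nor were *Tln2* at -0.86 (adjusted p = 0.0560) and *Kank2* at -0.61 (adjusted p = 0.176).

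Of 17 tested focal adhesion adaptors 1 was called lower and none higher. *Git2* at 0.77 (adjusted p = 0.0960) and *Tns1* at -0.50 (adjusted p = 0.103) were not called by edgeR. With chromosome medians removed *Tns1* had a log2 fold change of -0.69 and was called (adjusted p = 0.0346). *Vcl*, for vinculin, had 1 and 3 scrambled reads and 3 and 0 knockdown reads and was not tested. Its last 100 bases are wholly overlapped by exons of *Ap3m1* on the other strand, what left it with few reads was not tested, and its count is not taken as a level.

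Of 11 tested adhesion kinases and phosphatases 1 was called lower. *Fyn*, for a kinase of the Src family, had 47 and 59 scrambled reads and 26 and 17 knockdown reads, and fell by 1.10 (SE 0.280, edgeR adjusted p = 0.0254). *Ptk2*, for the focal adhesion kinase, had 88 and 122 reads against 107 and 84, with a log2 fold change of 0.07 (edgeR adjusted p = 0.858). *Src* at -0.63 (adjusted p = 0.111) and *Ptk2b* at -1.48 (adjusted p = 0.0597) were not called.

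Of 16 membrane partners of integrins 1 was called higher. *Cd47*, which associates with alpha v beta 3, had 204 and 226 scrambled reads and 341 and 226 knockdown reads, and rose by 0.59 (SE 0.159, edgeR adjusted p = 0.0349). Like *Itgb5* it lies on chromosome 16, and with chromosome medians removed it had a log2 fold change of 0.29 (adjusted p = 0.439). *Cd81* at -0.41 (edgeR adjusted p = 0.125) and *Cd44* at -0.40 (adjusted p = 0.0965) were not called.

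Of 17 tested ligands 2 were called lower and 2 higher. *Tnc*, for tenascin C, a ligand of alpha v integrins, had 429 and 509 scrambled reads and 76 and 99 knockdown reads. It fell by 2.21 on the log2 scale (SE 0.180, edgeR adjusted p = 4.08e-07), a larger change than that of any other tested gene of these lists. *Fbn1*, for fibrillin-1, whose RGD motif binds alpha 5 beta 1 and alpha v integrins, had 110 and 157 against 51 and 53 and fell by 1.14 (SE 0.191, edgeR adjusted p = 0.00117). *Npnt*, for nephronectin, a ligand of alpha 8 beta 1, had 27 and 29 reads against 55 and 54 and rose by 1.16 (SE 0.260, edgeR adjusted p = 0.0108). *Thbs1*, for thrombospondin-1, had 848 and 1168 against 1620 and 972 and rose by 0.56 (SE 0.158, edgeR adjusted p = 0.0429). With the replicate block it was not called (adjusted p = 0.0764). *Fn1*, for fibronectin, the ligand of alpha 5 beta 1, had 762 and 898 reads against 588 and 625, and its log2 fold change of -0.24 was not called (edgeR adjusted p = 0.344).

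*Tnc* and *Fbn1* were called in all 16 other settings. *Npnt*, *Fyn* and *Cd47* were not called by any of the 3 DESeq2 tests, and *Fermt2* and *Thbs1* not by the Wald test with a parametric fit. Without knockdown 1, *Fermt2* (edgeR adjusted p = 0.0803), *Fyn* (0.0654), *Cd47* (0.294) and *Thbs1* (0.361) were not called, and the log2 fold change of *Thbs1* was then 0.28. Without scrambled 2, *Fyn* (0.0511), *Cd47* (0.205), *Npnt* (0.0511) and *Thbs1* (0.0585) were not called. *Fyn* (0.106) and *Npnt* (0.0563) were not called without knockdown 2, nor *Thbs1* (0.172) without scrambled 1.

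**Figure D4:**
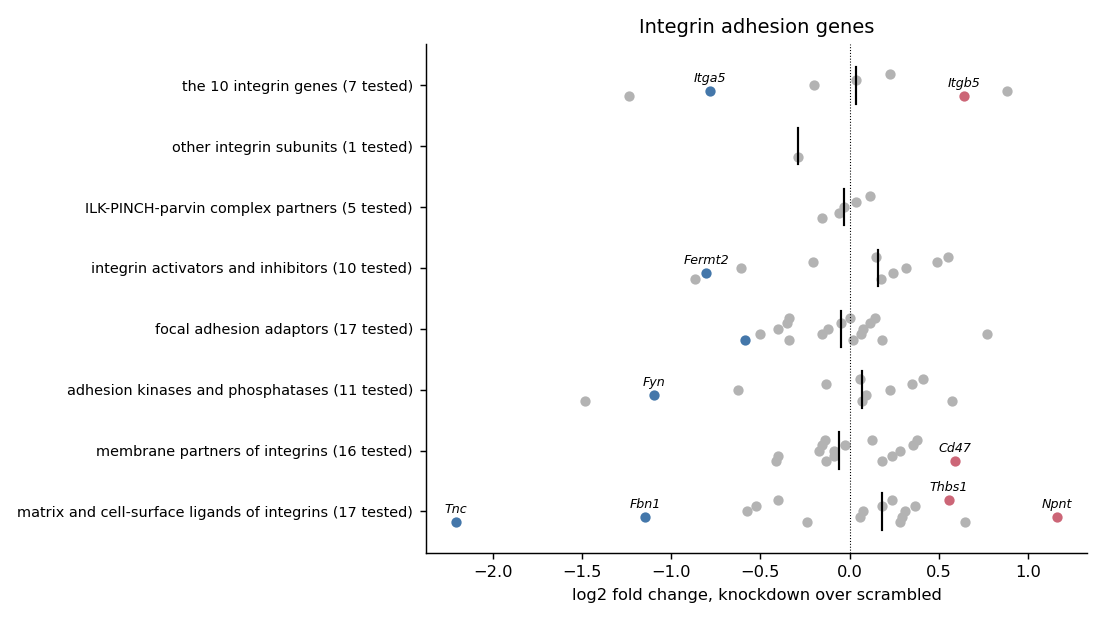
Log2 fold change, knockdown over scrambled, of each tested gene in the integrin genes, the other subunits and 6 adhesion lists; blue points are called lower, red points called higher and grey points not called, and black lines are list medians. All but 1 of the called genes are named, and *Tnc* at -2.21 lies farthest from 0.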

How the data were processed

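Direct RNA reads of 4 libraries were used. The deposited files hold raw counts per gene, which the authors made with HTSeq 0.9.1 from guppy basecalls aligned by minimap2 2.17 (GRCm39). The annotation release and strand setting of the counting are not given in the sources used here. Of the reads, 16.0 to 16.5% were set aside as ambiguous and 22.7 to 23.8% as having a low mapping quality; these rows were left out. Symbols and positions came from GENCODE vM39.

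Knockdown was compared with scrambled by the edgeR 4.0.16 quasi-likelihood test (R 4.3.3) with TMM factors, filterByExpr and Benjamini-Hochberg adjustment over all tested genes. Alternatives included DESeq2 1.42.0, chromosome medians removed and each library left out. The fit was tested on simulated data. Normalized reads are counts divided by the TMM library size and multiplied by its mean. With 2 libraries a group, an exact two-sided permutation test cannot go below p = 0.333, so none is given for single values. Compared with each other, the scrambled libraries gave a chi-square per gene of 2.54 and the knockdown libraries one of 2.79, and each was counted as 1 replicate.

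Replicate numbers pair libraries by batch label. Deviations of the libraries numbered 1 had a correlation of 0.00104 between groups over 6166 genes, so the block was an alternative.

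The genes and lists were chosen with earlier results of these data known. Named were all 10 integrin genes, *Hnrnpl*, all other tested subunits and, in each list, the called genes and, where these were fewer than 3, the tested genes with the largest change up to 3. *Lims1*, *Tln1*, *Vcl*, *Ptk2*, *Fn1*, *Itgb4*, *Itgb8*, *Itga8*, *Itga9*, *Itgad*, *Itgam*, *Itgax*, *Taf10*, *Tmt1b*, *Cerkl*, *Ap3m1*, *Parvg* and the cell type markers were named outside this rule, after their values were seen. The called gene of the focal adhesion adaptors is not reported here. Intervals of shares are exact binomial, and intervals and limits cover counting error only. Transcripts were mapped with minimap2 2.31.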

Additional observations from a re-analysis of the deposited data

How the results depend on the processing

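*Itga5* kept its direction in all 16 other settings and its call in 15. With the replicate block, 204 genes were called higher and 280 lower, *Itga5* had a log2 fold change of -0.78 (edgeR adjusted p = 0.0067) and *Itgb5* of 0.64 (adjusted p = 0.0302), and no integrin gene changed its call. Over all genes, 202 were called higher and 279 lower as reported, against 80 and 148 by the Wald test of DESeq2 under its local fit, 44 and 71 under its parametric fit, 75 and 147 with the likelihood-ratio test, and 106 and 179 with chromosome medians removed. With each library left out these were 82 to 183 and 112 to 261. Of the integrin genes, 0 were called higher by the 3 DESeq2 tests and 0 lower with the parametric fit; 2 were higher and 2 lower without a filter, 2 lower with at least 10 counts in every library and 2 higher with the robust test. Leaving out a library gave 0 to 1 higher and 1 to 2 lower. In the other adhesion lists, 1 higher and 3 lower were called by the locally fitted Wald test and the likelihood-ratio test, 0 and 2 by the parametric one, 4 and 7 without a filter, 2 and 7 with chromosome medians removed, and 0 to 3 and 2 to 9 with a library left out. *Itga6* ran from -0.12 without knockdown 2 to 0.19 without knockdown 1, with -0.08 without scrambled 2, all within its error. The causes were not tested. *Itga3*, *Itgb3* and *Itga7* had 2 to 57 reads a library, which limits their precision.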
